A study of Mus musculus with 8 samples.

Results

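The genes described here encode cargo and associated proteins of the cytotoxic granule, and a cytosolic inhibitor of its granzyme B. They are the granzymes Gzma, Gzmb, Gzmc and Gzmk, perforin (Prf1) and the granzyme B inhibitor Serpinb9. The others are the granule proteoglycan serglycin (Srgn) and the granule-associated proteins Nkg7, Ctsw and Lamp1. The 10 are called granule genes here. All were chosen by name and were found among the 41730 features of the deposited count table. Of the 10, 9 passed the filter on low counts and were among 12162 genes tested; Gzmk was not. The cells were mouse CD8+ T cells of the OT-I genotype, whose transgenic T cell receptor recognises the ovalbumin peptide SIINFEKL, so they stand for a single receptor specificity. Bone marrow-derived dendritic cells carrying that peptide served as their partners in co-culture, and the T cells were then isolated by flow cytometry. Co-cultures held either DMSO, the solvent, or RGX-104 at 2 µM, a small molecule that activates liver X receptors (LXR), lipid-sensing nuclear receptors. DMSO has 4 libraries (replicates 1 to 4) and RGX-104 has 4 (replicates 5 to 8). Because the agonist was present in the co-culture, an action on the T cells and one through the dendritic cells cannot be told apart. The labels give no age or sex of the mice, no length of culture and no origin of the replicates from separate cultures or animals, so p-values measure only the spread between these libraries, which may be technical.

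A CD8 T cell kills by releasing granules at its contact with a target. Perforin opens the target's membrane, and granzymes, serine proteases kept inactive on serglycin until release, enter and cut proteins that start cell death. Granzyme B cleaves after aspartate and activates caspases, granzyme A cleaves after basic residues, and Serpinb9 in the T cell's own cytosol traps granzyme B that leaks from granules. Naive CD8 T cells hold little of this cargo, and antigen, costimulation and cytokines switch it on.

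Gzmb rose and Serpinb9 fell with RGX-104, and none of the other 7 tested granule genes passed the test. Gzmb RNA was 1.68-fold higher, and Serpinb9 RNA was at 0.867 of its DMSO level. Thus 1 of 9 tested granule genes was higher, where 0.888% of all 12162 tested genes were, and 1 of 9 was lower, where 1.78% were. In either direction 2.66% of all tested genes were called. The median log2 fold change of the 9 genes was 0.08, and that of all tested genes was 0.00276. A called gene is one with an adjusted p under 0.05 in edgeR's quasi-likelihood test, adjusted by Benjamini-Hochberg over all 12162 genes. Levels are read counts per 1000000 reads of the TMM-scaled library size (CPM). The library kit reads transcript ends, so a level counts reads near the end of a transcript and was not divided by length. In bulk RNA, fewer cells expressing a gene and less of its RNA per cell cannot be told apart.

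**Figure D1:**
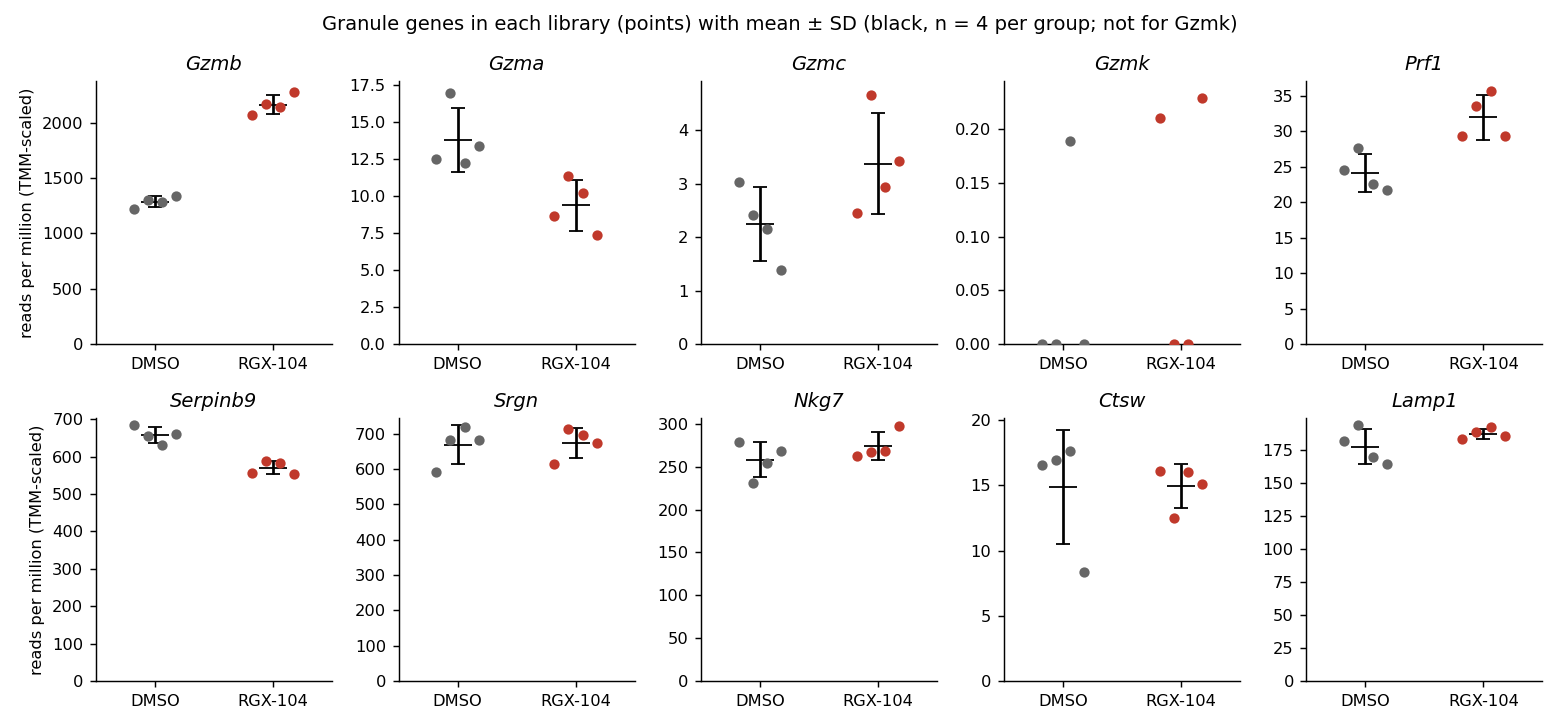
CPM (vertical axes, each starting at 0) of the 10 granule genes in the 4 DMSO (grey) and 4 RGX-104 (red) libraries, with the mean ± SD in black except for Gzmk. The Gzmb points of RGX-104 (2065 to 2276 CPM) lie above all DMSO points (1223 to 1339 CPM), and the Serpinb9 points (554 to 588 CPM) lie below them (631 to 684 CPM).

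Gzmb encodes granzyme B (chromosome 14, 56258836 to 56262334, minus strand, GRCm38.p6). It was at 1223, 1305, 1280 and 1339 CPM in DMSO replicates 1 to 4 and at 2065, 2168, 2141 and 2276 CPM in RGX-104 replicates 5 to 8. Every RGX-104 library lay above every DMSO library, and the spread within each group was small beside the gap. The mean went from 1287 ± 48.8 to 2162 ± 87.1 CPM (SD, n = 4 per group), a log2 fold change of 0.75 ± 0.04 (SE; edgeR adjusted p = 6.22e-11). By p-value Gzmb ranked 3 among the 12162 tested genes. By mean level it ranked 74 among the 41730 features in DMSO and 32 in RGX-104. Its share of all counted reads went from 0.128% to 0.216%. RNA of the CD8 coreceptor moved the same way: Cd8a was at 266 to 289 CPM in DMSO and 388 to 407 CPM in RGX-104, and 7 CD8 T cell markers summed to 1486 to 1529 and 1783 to 1835 CPM. Of these 7, Cd8a, Cd8b1 and Thy1 were called higher, and Cd3d, Cd3e, Cd3g and Lck were not called. The part of the shift in CD8 marker RNA in the Gzmb result was not tested.

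To show the sequence before the start of the granzyme genes with the highest and the second highest read level, the 250 bases upstream of the RefSeq start of Gzmb (chr14:56262335-56262584) and Gzma (chr13:113100982-113101231) are given 5′ to 3′ on the minus strand of GRCm38.p6, from RefSeq. Capitals mark matches to the motifs searched.
Gzmb: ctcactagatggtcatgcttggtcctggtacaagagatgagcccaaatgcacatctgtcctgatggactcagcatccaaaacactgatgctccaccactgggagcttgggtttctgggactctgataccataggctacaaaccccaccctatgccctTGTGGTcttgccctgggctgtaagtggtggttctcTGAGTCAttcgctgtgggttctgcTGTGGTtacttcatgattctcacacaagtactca
Gzma: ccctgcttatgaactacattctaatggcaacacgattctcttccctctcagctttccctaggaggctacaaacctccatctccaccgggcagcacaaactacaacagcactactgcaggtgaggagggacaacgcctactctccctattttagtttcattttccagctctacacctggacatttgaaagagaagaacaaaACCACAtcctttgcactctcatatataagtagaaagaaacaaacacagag
The letters searched on both strands were TGTGGT (Runx factors), TGANTCA (AP-1), TGACGTCA (CRE/ATF), GGTGTGA (T-box factors), TTCNNNGAA (STAT), AGGTCA (a nuclear receptor half-site), and the direct repeat of that half-site with a spacer of 4 bases, the DR4 type of element bound by LXR. The Gzmb window holds TGTGGT 2 times, from 93 to 88 and from 34 to 29 bases before the start, and TGAGTCA from 58 to 52 bases before it. The Gzma window holds ACCACA, the reverse complement of TGTGGT, from 50 to 45 bases before the start. Of the 10 granule genes, 9 were matched to 10 windows of 250 bases, and TGTGGT stood in 7 of the 10, against 14.0% of all 32851 windows in the table. Not all of these windows lie before the gene positions given here. The windows of Gzmc and Serpinb9 and the Srgn window that holds ACCACA lie inside the gene, and that of Prf1 runs past its first base. The half-site AGGTCA, which the direct repeat contains and which 14.0% of all windows hold, was in 1 of the 10, that of Gzmc. The full direct repeat was in 0 of them and in 0.0152% of all windows. The motif TGANTCA was in 1 of the 10 windows (6.75% of all), TGACGTCA in 1 (1.55%), GGTGTGA in 2 (3.33%) and TTCNNNGAA in 1 (7.02%). These are matches of letters in a short window, and binding was not measured.

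Granzyme A (Gzma; chromosome 13, 113093824 to 113100981) is a tryptase of the granule. It was at 12.5, 16.9, 12.2 and 13.4 CPM in DMSO replicates 1 to 4 and at 8.63, 11.3, 10.2 and 7.39 CPM in RGX-104 replicates 5 to 8. The groups did not overlap, yet the gene was not called. Its mean was 13.8 ± 2.16 and 9.38 ± 1.73 CPM (log2 fold change -0.55 ± 0.18; edgeR adjusted p = 0.140, between 0.118 and 0.355 under the alternatives tried). Groups without overlap were found for 8.20% of all tested genes, and among the granule genes for Gzmb, Gzma, Prf1 and Serpinb9.

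Gzmc, a granzyme found in mice and not in humans, lies 17188 bp from Gzmb on chromosome 14 (56231397 to 56241647). It had 47, 36, 34 and 21 reads in DMSO and 35, 67, 44 and 45 in RGX-104, and the groups overlapped. Its level was 2.25 ± 0.684 and 3.37 ± 0.945 CPM (log2 fold change 0.58 ± 0.36; edgeR adjusted p = 0.498). At this depth a difference of that size in Gzmc did not pass the test.

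Gzmk, a granzyme of memory-type CD8 T cells, lies on chromosome 13 (113171630 to 113180965), 70648 bp from Gzma. It had 3 reads in DMSO replicate 3 and in RGX-104 replicates 5 and 8, and 0 in the other 5 libraries. A count of 0 allows up to 3 reads per library, or 0.189 to 0.229 CPM, so both groups were at the limit of detection and no fold is given.

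The 7 granzyme genes of the chromosome 14 cluster span 56117619 to 56262334. Within it, Gzmb had 18935 to 31978 reads per library, Gzmc 21 to 67, and Gzmf 1 to 22, while Gzmd, Gzme, Gzmg and Gzmn were listed at 0 in all libraries. In the last 300 bases of their annotated transcripts, between 9.96% (Gzmd) and 25.1% (Gzmg) of 50-base stretches also occur in another gene of the cluster, so reads could have been split or dropped there. The same share was 0 for Gzma, Gzmb, Gzmc and Gzmk. Gzmb made up 98.5% to 98.8% of all granzyme reads in DMSO libraries and 99.2% to 99.4% in RGX-104 libraries. All granzymes together took 0.130% ± 0.00586 of counted reads in DMSO and 0.218% ± 0.00941 in RGX-104 (SD, n = 4 per group).

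Perforin (Prf1; chromosome 10, 61297751 to 61304684) forms the pore through which granzymes enter. It was at 24.5, 27.7, 22.6 and 21.7 CPM in DMSO and at 29.3, 33.6, 35.6 and 29.3 CPM in RGX-104. All 4 RGX-104 libraries lay above all 4 DMSO libraries, with a narrow gap. The mean was 24.1 ± 2.66 and 31.9 ± 3.18 CPM (log2 fold change 0.41 ± 0.12; edgeR adjusted p = 0.0898). This missed the threshold, and DESeq2 placed it just inside (adjusted p = 0.0497). Over all alternatives the adjusted p lay between 0.0497 and 0.246.

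Serpinb9 (chromosome 13, 32997061 to 33017955) encodes the cytosolic inhibitor that protects the killer cell from its own granzyme B. It was at 684, 657, 631 and 661 CPM in DMSO and at 556, 588, 584 and 554 CPM in RGX-104. No RGX-104 library reached the lowest DMSO library. The mean went from 658 ± 21.7 to 570 ± 18.0 CPM, a log2 fold change of -0.21 ± 0.05 (edgeR adjusted p = 0.0115). Without RGX-104 replicate 8 the change was -0.19 and just missed the threshold (adjusted p = 0.0503).

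Serglycin (Srgn; chromosome 10, 62493833 to 62527445), the proteoglycan on which granzymes and perforin are stored, was at 590 to 719 CPM in DMSO and 613 to 712 CPM in RGX-104. Its log2 fold change was 0.01 ± 0.06 (edgeR adjusted p = 0.957), and the RGX-104 range lay inside the DMSO range. Nkg7, a membrane protein of granules needed for their release (chromosome 7, 43437138 to 43438246), was at 231 to 279 and 263 to 298 CPM, with a log2 fold change of 0.09 ± 0.06 (adjusted p = 0.575). Replicate 8 of RGX-104 was the one Nkg7 value above the DMSO range. Cathepsin W (Ctsw; chromosome 19, 5465043 to 5468628), a cysteine protease of CD8 T and NK cells, was at 16.6, 16.9, 17.7 and 8.39 CPM in DMSO and between 12.5 and 16.1 CPM in RGX-104. DMSO replicate 4 lay far below the other DMSO libraries. The log2 fold change of Ctsw was 0.00307 ± 0.20 with that library (adjusted p = 0.997) and -0.19 without it (adjusted p = 0.660).

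Lamp1, the lysosomal membrane glycoprotein whose surface appearance marks degranulation (chromosome 8, 13159161 to 13175338), was at 164 to 194 CPM in DMSO and 183 to 192 CPM in RGX-104. The RGX-104 values lay inside the DMSO range (log2 fold change 0.08 ± 0.06; edgeR adjusted p = 0.619). Exons of Lamp1 overlap those of Grtp1 on the opposite strand over 249 bp, and 51.0% of the 50-base stretches in the last 300 bases of Lamp1 occur in Grtp1 as well. Grtp1 itself had 1 to 18 reads per library, so which gene of the pair gave the shared reads cannot be told apart without the strand setting of the counting. The 3′ ends of the other 9 granule genes shared no 50-base stretch with another gene.

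**Figure D2:**
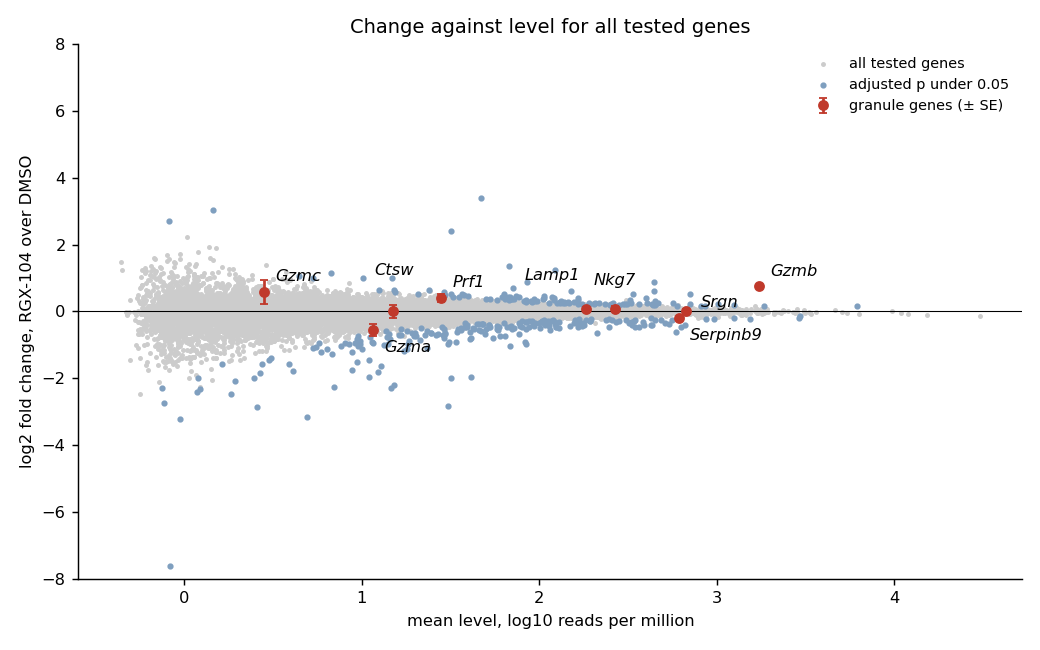
Log2 fold change (RGX-104 over DMSO) against mean level (log10 CPM) for 12162 tested genes (grey), called genes (blue) and the 9 tested granule genes (red, ± SE). Gzmb (0.75) and Serpinb9 (-0.21) are the 2 called granule genes, and the values of Srgn (0.01) and Nkg7 (0.09) are near 0.

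In DMSO libraries the order of mean levels was Gzmb, Srgn, Serpinb9, Nkg7, Lamp1, Prf1, Ctsw, Gzma, Gzmc and Gzmk. Srgn (590 to 719 CPM) and Serpinb9 (631 to 684 CPM) overlapped there, and so did Ctsw (8.39 to 17.7 CPM) and Gzma (12.2 to 16.9 CPM). The order was the same in RGX-104 libraries. There Srgn (613 to 712 CPM) lay apart from Serpinb9 (554 to 588 CPM), and Ctsw (12.5 to 16.1 CPM) apart from Gzma (7.39 to 11.3 CPM).

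Whether Gzmb changed by more than the other granule genes was tested on the ratio of reads within each library, which needs no scaling between libraries. Each of 8 ratios was compared between groups by an exact two-sided permutation test over the 8 libraries (70 regroupings), whose smallest possible p is 0.0286. For 5 of the 8 ratios the groups did not overlap and the exact p was 0.0286 (0.0457 after Benjamini-Hochberg adjustment over the 8 ratios). These were the ratios to Gzma, Serpinb9, Srgn, Nkg7 and Lamp1. Every RGX-104 library lay above every DMSO library for Gzmb, and below for Gzma and Serpinb9. The ratios to Gzma and Serpinb9 therefore had to separate, and they add no support to the single-gene results. Their p-values also lower the adjusted p of the other ratios. With all 8 libraries, those to Srgn, Nkg7 and Lamp1 stay under 0.05 after adjustment only with the ratios to Gzma and Serpinb9 counted. How many of all tested genes have a ratio to Gzmb without overlap was not computed. The count is therefore not read as particular to granule genes.

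Against its inhibitor, the libraries held 1.79, 1.99, 2.03 and 2.02 Gzmb reads per Serpinb9 read in DMSO and 3.72, 3.69, 3.67 and 4.11 in RGX-104. The mean log2 ratio was 0.96 higher in RGX-104 than in DMSO. That its groups did not overlap followed from the values of the single genes, as said above. Against granzyme A, 77.1 to 105 Gzmb reads per Gzma read in DMSO became 191 to 308 in RGX-104, a log2 difference of 1.31. Relative to Srgn, 1.78 to 2.07 Gzmb reads per Srgn read became 3.04 to 3.37, a log2 difference of 0.74. The log2 difference was 0.66 against Nkg7 and 0.67 against Lamp1.

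The ratio of Gzmb to Prf1 went from 47.1 to 61.8 in DMSO to 60.1 to 77.6 in RGX-104. These ranges overlapped, and the log2 difference of 0.34 did not pass (exact permutation p = 0.0571, adjusted 0.0762). Without DMSO replicate 4 it was 0.41 with an adjusted exact p of 0.0327. Against Ctsw the log2 difference was 0.69 (exact permutation p = 0.114, adjusted 0.131), and 0.97 without DMSO replicate 4 (adjusted exact p = 0.0327). Against Gzmc it was 0.15 (exact permutation p = 0.657), where -0.03 was obtained without DMSO replicate 1. So a different change of Gzmb from that of Prf1, Ctsw and Gzmc was not shown with all 8 libraries. For Srgn, Nkg7 and Lamp1 the adjusted test passed only with the ratios to Gzma and Serpinb9 counted, as said above.

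**Figure D3:**
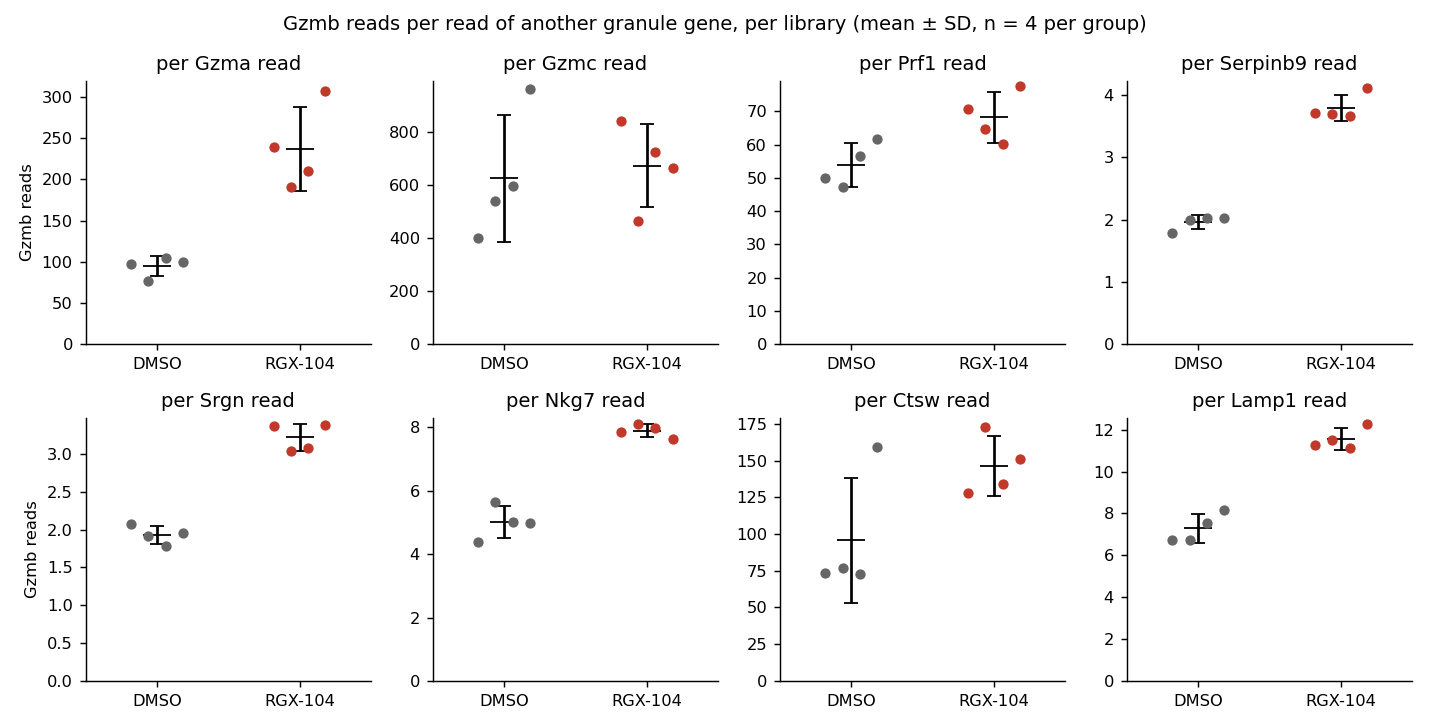
Gzmb reads per read of 8 other granule genes in each library (points; grey, DMSO; red, RGX-104), with the mean ± SD in black (n = 4 per group) and axes starting at 0. The ratio to Serpinb9 reads 1.79 to 2.03 in DMSO and 3.67 to 4.11 in RGX-104, and the ratios to Gzmc, Prf1 and Ctsw overlap between the groups.

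The remaining genes of the granule pathway were described as 6 lists. Of 6 other granzymes, 1 could be tested: Gzmm, granzyme M, which cleaves after methionine and leucine (chromosome 10, 79689020 to 79695261). It had 0, 2, 2 and 9 reads in DMSO replicates 1 to 4 and 23, 20, 15 and 22 in RGX-104 replicates 5 to 8. Its level was 0.214 ± 0.261 CPM in DMSO, where 3 of 4 libraries held 3 reads or fewer, and 1.42 ± 0.304 CPM in RGX-104. Gzmm passed the filter on low counts only through the RGX-104 libraries, so its edgeR call (adjusted p = 0.0340) is given as a description and no fold is read from it. The call was absent without that filter (adjusted p = 0.0682) and without any one of DMSO replicates 1, 2 and 3 or of RGX-104 replicates 5 to 8 (adjusted p = 0.0690 to 0.149), and present without DMSO replicate 4 (adjusted p = 0.0100).

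Of 12 protease inhibitors besides Serpinb9, 4 could be tested, and 1 fell and 0 rose (median log2 fold change -0.11). The gene that fell was Serpinb6b, an inhibitor of mouse granzyme A. It was at 557, 578, 561 and 590 CPM in DMSO and at 423, 465, 447 and 478 CPM in RGX-104. The groups stood well apart, with means of 571 ± 15.4 and 453 ± 23.6 CPM (log2 fold change -0.33 ± 0.05; edgeR adjusted p = 0.000157). Serpinb1a (means of 0.799 and 0.646 CPM; log2 fold change -0.31; edgeR adjusted p = 0.880) and Serpinb6a (10.4 and 11.1 CPM; 0.09; adjusted p = 0.899) were not called. The sign turned without DMSO replicate 1 for Serpinb1a, and without DMSO replicate 4 or RGX-104 replicate 8 for Serpinb6a. Serpinb9c, Serpinb9d, Serpinb9e, Serpinb9f and Serpinb9g, neighbours of Serpinb9 on chromosome 13, were listed at 0 in all libraries. In the last 300 bases of their transcripts, the share of 50-base stretches found in another gene was 0 for Serpinb9c, 11.2% for Serpinb9g, 28.3% for Serpinb9d, 51.8% for Serpinb9e and 100% for Serpinb9f, so a 0 does not carry the same weight for each.

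All 9 genes of granzyme processing and sorting were tested, and 1 rose and 0 fell (median log2 fold change 0.05). This was Calr, calreticulin, a chaperone that also binds perforin, which went from 1168 ± 41.0 to 1330 ± 19.6 CPM (log2 fold change 0.19 ± 0.04; edgeR adjusted p = 0.00954). Ctsc, the dipeptidyl peptidase that activates progranzymes, was at 72.8 ± 3.38 and 75.5 ± 2.35 CPM (log2 fold change 0.05; edgeR adjusted p = 0.819). For Cst7, the cystatin that restrains it, the means were 40.9 ± 5.35 in DMSO and 47.4 ± 2.75 CPM in RGX-104, with a log2 fold change of 0.21 (adjusted p = 0.374). M6pr, a receptor that sorts mannose 6-phosphate tagged enzymes to lysosomes, was at 109, 124, 117 and 168 CPM in DMSO and at 149 to 163 CPM in RGX-104. It was not called (log2 fold change 0.25; adjusted p = 0.200), but without DMSO replicate 4, the highest library, it was (0.41; adjusted p = 0.00165).

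Of 20 genes of lysosome and granule membrane and content, 18 were tested and edgeR called 0, as did DESeq2 and limma-voom, with 1 at an unadjusted p under 0.05 (median log2 fold change 0.06). That gene was Ctsa, a lysosomal carboxypeptidase, at 25.1 ± 1.05 and 31.0 ± 3.66 CPM (log2 fold change 0.30; edgeR adjusted p = 0.239). Ctsz and Gusb followed with log2 fold changes of 0.16 each (adjusted p = 0.432 and 0.506).

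Of 26 genes of granule transport and exocytosis, 25 were tested and edgeR and limma-voom called 0, with 4 at an unadjusted p under 0.05 (median log2 fold change 0.07). DESeq2 called 2 of them, Vti1b, a vesicle fusion protein that partners Stx7 and Stx8, and Wipf1, a partner of the actin regulator WASP. Vti1b was at 60.4 ± 6.23 and 74.9 ± 4.10 CPM (log2 fold change 0.31; edgeR adjusted p = 0.0566; DESeq2 adjusted p = 0.0241), and Wipf1 at 76.3 ± 4.40 and 92.3 ± 7.23 CPM (0.28; edgeR adjusted p = 0.0576; DESeq2 adjusted p = 0.0241). Both were also called when at least 10 counts were required in every library (adjusted p = 0.0398 and 0.0424), and Vti1b without DMSO replicate 3 (0.37; adjusted p = 0.0341). Dock8 had a log2 fold change of 0.32 (edgeR adjusted p = 0.200).

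Of 12 transcription factors known to act on granule genes, 11 were tested, 3 rose and 0 fell (median log2 fold change 0.06). Eomes, a T-box factor that binds the Gzmb and Prf1 genes, rose from 118 ± 14.4 to 181 ± 2.47 CPM (log2 fold change 0.62; edgeR adjusted p = 1.13e-05). Its relative Tbx21 (T-bet) went from 130 ± 9.35 to 158 ± 5.40 CPM (0.28; adjusted p = 0.0144, and 0.0611 without DMSO replicate 2). Irf4 went from 519 ± 27.9 to 615 ± 28.4 CPM (0.24; adjusted p = 0.00646). Runx3 is listed at 0 in all libraries, as are Neu1, Laptm5 and Vamp8 of the other lists. The table lists each of these 4 symbols again with a number appended, so this is not read as absence; none of the 10 granule genes has such a repeat (0 of 10).

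**Figure D4:**
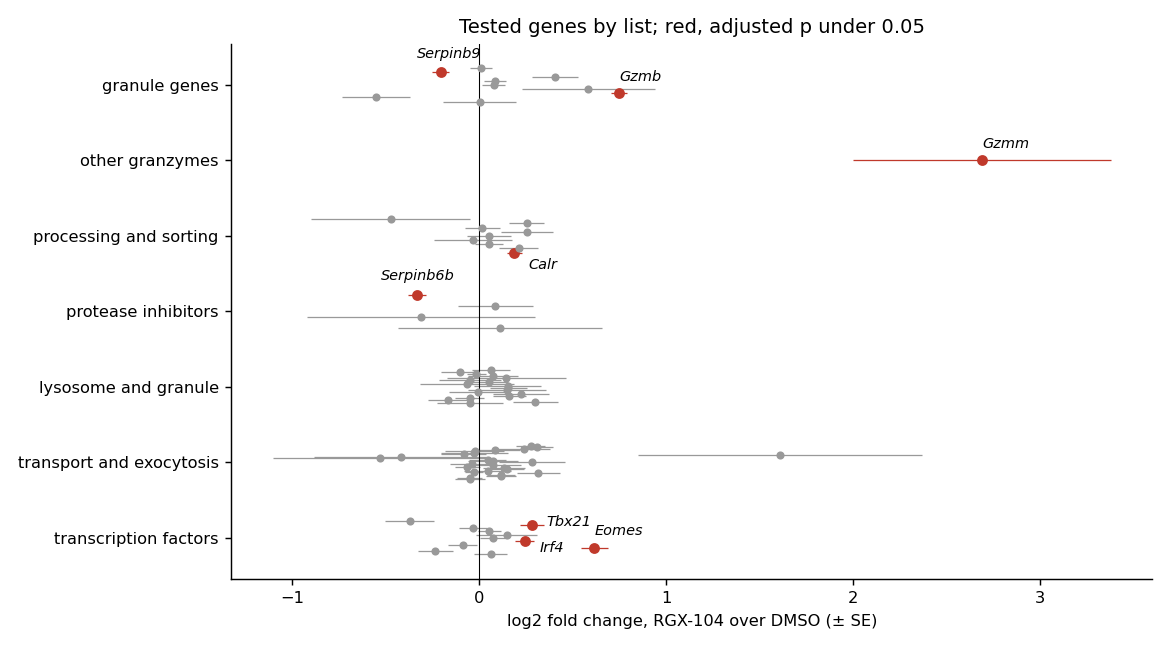
Log2 fold change (RGX-104 over DMSO, ± SE) of every tested granule gene and every tested gene of the 6 other lists, with called genes in red and named. The called genes are Gzmb, Calr, Eomes, Tbx21 and Irf4, which rose, Serpinb9 and Serpinb6b, which fell, and Gzmm, which passed the filter on low counts only through RGX-104 libraries and whose call was absent in 8 of 17 alternatives; the lists of lysosomal and of exocytosis genes hold 0 called genes by edgeR.

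The genes whose pattern over the 8 libraries was most like that of Gzmb were found by the root mean square difference in log2 CPM after centring each gene on its own mean. Among 6123 other genes with a mean of at least 20 CPM the closest 5 were Fasn (0.0988), the fatty acid synthase, Scd2 (0.106), a fatty acid desaturase, Arl4c (0.113), a small GTPase, Cd8a (0.120), a chain of the CD8 coreceptor, and Ifng (0.136), interferon gamma. The median difference over the 6123 genes was 0.387. Fasn went from 334 to 369 CPM in DMSO to 522 to 544 CPM in RGX-104, and Ifng from 534 to 626 CPM to 779 to 902 CPM. The measure takes in the difference between the groups, so it favours genes with a similar fold change.

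Total counts ran from 13144704 to 15966972 per library. The share of mitochondrial rRNA and tRNA was 4.59% to 4.95% in DMSO and 4.84%, 4.52%, 4.05% and 3.99% in RGX-104 replicates 5 to 8. That of ribosomal protein genes was 9.31% to 9.53% in DMSO and 8.99%, 9.15%, 9.58% and 9.85% in RGX-104 replicates 5 to 8. Mki67, a gene of dividing cells, was at 223 to 246 CPM in DMSO and 243, 193, 155 and 136 CPM in those replicates. The part of these shifts in the granule genes' results was not tested. Of the CD8 T cell markers, 7 of 10 were in the table, all 7 were tested and 3 rose (Cd8a, Cd8b1 and Thy1). NK and mast cells hold granule proteases of their own. Of 8 NK cell markers, Ncr1 had 0 to 2 reads and Klrb1c 0 to 1 reads per library, Tyrobp 15 to 43 and Fcer1g 35 to 74, and the list summed to 4.37 to 7.30 CPM in DMSO and 3.79 to 8.00 CPM in RGX-104. Of 8 mast cell and basophil markers, Cpa3 and Mcpt4 had 0 to 1 reads, Ms4a2 had 0, and Kit and Hdc had 8 to 30 and 12 to 37, and the list summed to 2.05 to 4.50 and 1.61 to 2.61 CPM. Dendritic cell markers summed to 580 to 640 and 558 to 678 CPM, most of it Ccr7, Ly75 and Cd83, which T cells express too. Among the others, Itgax had 14 to 29 reads per library, Zbtb46 31 to 108 and Cd74 76 to 125. Macrophage and monocyte markers summed to 43.5 to 51.0 and 48.3 to 56.7 CPM, of which Ctss gave 28.0 to 35.9 and 33.0 to 41.3 CPM. Neutrophil markers summed to 7.95 to 9.07 and 5.82 to 8.20 CPM. Elane and Mpo were listed at 0, and Mpo is listed again with a number appended, so its 0 is not read as absence. CD4 and regulatory T cell markers summed to 4.86 to 6.14 and 3.28 to 5.84 CPM. Of 52 markers of these 6 other cell groups, 25 were tested, and edgeR, DESeq2 and limma-voom called 0 of them, with 2 at an unadjusted p under 0.05. Both were dendritic cell markers with lower levels in RGX-104: Ccl22 had a log2 fold change of -1.18 (edgeR adjusted p = 0.165, groups without overlap) and Fscn1 of -0.83 (adjusted p = 0.224). Of the 9 tested dendritic cell markers, 7 had a negative and 2 a positive log2 fold change, and the part of this in the granule genes' results was not tested.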

How the data were processed

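RNA of 8 samples of flow-sorted OT-I CD8+ T cells was sequenced with a Lexogen 3′ FWD kit, per the labels' protocols. The authors deposited raw whole-number read counts per gene. The submitters' processing notes name STAR 2.7.8a, R 4.1.0, DESeq2 1.4 and GRCm38. Not given in the sources used here: the annotation release, the program that counted reads, whether it used strand, how it treated reads with several matches and whether molecular identifiers were read. Without identifiers, PCR copies are not independent molecules, so limits from counts cover counting error only.

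The main test was the two-sided quasi-likelihood test of edgeR 4.0.16 (R 4.3.3) after filterByExpr and TMM, with group as the only term and all 8 libraries. P-values were adjusted by the Benjamini-Hochberg method over 12162 genes, and 0.05 was the threshold. The SE is the size of the log2 fold change over the square root of F. Ratios added 0.5 to each count before the log2. The test was checked on simulated counts. DESeq2 1.42.0, limma-voom (limma 3.58.1), other normalizations, other filters and leaving out each library were alternatives. Chi-square over its degrees of freedom was 6.62 to 10.2 for library pairs within a group, so no pair was a copy. All 8 columns were matched by number and group word to sample titles, and 0 columns belonged to another series.

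Members and lists were chosen with earlier results of these data known. All 10 members are described. Of each other list, the called genes and the 3 with the smallest p are named by rule; Ctsc was named after its values were seen, as were single marker genes. Positions are 1-based, from RefSeq on GRCm38.p6, and exon overlaps and transcript ends from GENCODE M21.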

Additional observations from a re-analysis of the deposited data

Results flagged for a closer look

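Ctsw in DMSO replicate 4 was at 8.39 CPM, while the other DMSO libraries were at 16.6 to 17.7 CPM. The gap was 0.885 of the group's range, above Dixon's 95% critical value for 4 samples. Nkg7 in RGX-104 replicate 8 was at 298 CPM, against 263 to 268 CPM in the other RGX-104 libraries (gap 0.853 of the range). Both groups of the 9 tested granule genes gave 18 such checks, and chance flags about 1 group in 20.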

How the results depend on the processing

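No paired analysis was run because the labels give no pairing of DMSO with RGX-104 libraries. Gzmb rose under all 18 alternatives (log2 fold change 0.72 to 0.77, adjusted p at most 6.02e-09). The fall of Serpinb9 (-0.23 to -0.19) kept its call in 17 of 18. Of 162 alternative values of the 9 tested granule genes, 151 kept direction and side of the threshold. The exceptions besides Serpinb9 and Prf1, both given above, were genes with a log2 fold change near 0. Ctsw was -0.0044 with upper quartile scaling and -0.0021 with at least 10 counts required in every library, and Ctsw ran from -0.19 to 0.10 and Srgn from -0.044 to 0.055 when single libraries were left out. DESeq2 called 2 granule genes higher, Gzmb and Prf1, and 167 genes higher over all, against 108 by edgeR. Leaving out single libraries gave 57 to 93 genes called higher over all and 0 to 1 granule genes called lower (0 without RGX-104 replicate 8). The count of genes called higher was 66, 57 and 58 without DMSO replicates 1, 2 and 3, and 65, 61 and 60 without RGX-104 replicates 6, 7 and 8. In the same way the log2 difference of the ratio of Gzmb to Gzmc ran from -0.030 to 0.38, Serpinb1a from -0.65 to 0.17 and Serpinb6a from -0.029 to 0.25. Of 286 alternative values of named genes of the other lists, chosen after seeing the data, 268 kept direction and side. The causes of these differences were not tested. With 4 libraries a group, the exact test of a ratio cannot go below 0.0286, and Gzmc, Gzmk and Gzmm are limited by their few reads.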
